A study of Mus musculus with 15 samples.

Results

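Alveolar type 1 (AT1) cells are the flat epithelial cells that line nearly the whole gas-exchange surface of the lung. The 10 genes described here, Ager, Hopx, Aqp5, Pdpn, Rtkn2, Cav1, Clic5, Emp2, Akap5 and Gprc5a, were chosen by name as genes of AT1 identity and taken from the table of raw counts by gene symbol. All 10 were found, each in 1 entry of the 46603 genes in the table, and all 10 were among the 15870 genes with enough reads to be tested. The label of AT1 identity comes from the known expression of these genes. The 10 genes and the other gene lists named below were chosen with earlier results of these data known. Their counts are therefore not independent of the choice.

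AT1 cells share a thin basement membrane with the capillary endothelium, so that oxygen crosses only a few layers between air and blood. In the adult lung they are renewed mainly from alveolar type 2 cells, the surfactant-producing epithelium, through a transitional state. The transcription factor Nkx2-1, and the coactivators Yap1 and Wwtr1 (TAZ) with their TEAD partners, hold the AT1 programme. Several of the 10 genes are also expressed outside AT1 cells: Cav1 is abundant in endothelium and fibroblasts, Pdpn in lymphatic endothelium and mesothelium, Hopx in some blood and stromal cells, and Aqp5 in airway glands and part of the airway epithelium.

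The lungs came from athymic Swiss nude (Foxn1nu/nu) mice, which lack a thymus and so most T cells, male or female and 8 to 12 weeks old by the methods. SCR lungs (6) were from mice that received 25 µL of the secretome of 143B cells, the material this human osteosarcoma line releases into its medium, into the peritoneum daily for 1 week. PT lungs (5) were from mice that carried a subcutaneous primary tumour of the 143B line until it measured 50 to 60 mm3, and CTR lungs (4) were from control mice, with vehicle in place of the secretome according to the methods. The comparisons ask whether the secretome or a distant tumour alters the lung before metastasis. Both SCR and PT were set against the same 4 CTR lungs, so their results are not independent.

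Each lung gave 1 library of whole-tissue RNA. Total counts were 13078095 to 18621680 in SCR lungs, 12767431 to 17386086 in PT lungs and 14167644 to 22109856 in CTR lungs. The fewest reads for a member in any lung were 1677, for Pdpn, so that counting error is small beside the spread between lungs. By Xist and Y-linked genes, SCR lungs 4 and 6 and PT lungs 3 and 5 were female and the other 11, with all CTR lungs, male. SCR lungs 1 to 3 stood apart from SCR lungs 4 to 6: their mean log2 CPM (counts per 1000000) of 10 glucocorticoid-response genes was 6.42 to 6.75, the same measure being 4.83 to 5.02 for SCR lungs 4 to 6, against 5.10 to 5.41 for CTR. Libraries also differed in how their counts followed the GC content of genes, which is described with the member values below. In whole lung, fewer AT1 cells and less RNA per AT1 cell cannot be told apart.

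None of the 10 genes passed the test in any comparison. At a Benjamini-Hochberg adjusted p under 0.05 in edgeR's quasi-likelihood test, 0 of 10 were called, whether SCR or PT lungs were set against CTR lungs or PT lungs against SCR lungs, beside 0.113%, 0% and 0.0378% of all tested genes. The fitted values lay mostly below 0: 9 of 10 in SCR against CTR with a median log2 fold change of -0.19, and 10 of 10 in PT against CTR with a median of -0.31. Over all tested genes the medians were 0.01 in both, with 48.8% of genes below 0 in SCR against CTR and 48.4% in PT against CTR. The SCR median was -0.10 without CTR lung 2 and -0.31 without SCR lungs 1 to 3, and limma on the FPKM normalised by the authors put the PT median at -0.16 with 8 of 10 below 0. At an unadjusted p under 0.05, 2 members were lower in SCR lungs (Emp2 and Gprc5a), where 10.2% of all genes were lower and 8.58% higher, and 4 were lower in PT lungs (Clic5, Cav1, Rtkn2 and Emp2), where 4.73% of all genes were lower and 2.93% higher. No member was higher at that threshold. In PT against SCR, 7 of 10 were below 0 with a median of -0.12, and 1 (Cav1) was lower at the unadjusted threshold, beside 5.6% of genes lower and 6.18% higher.

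**Figure D1:**
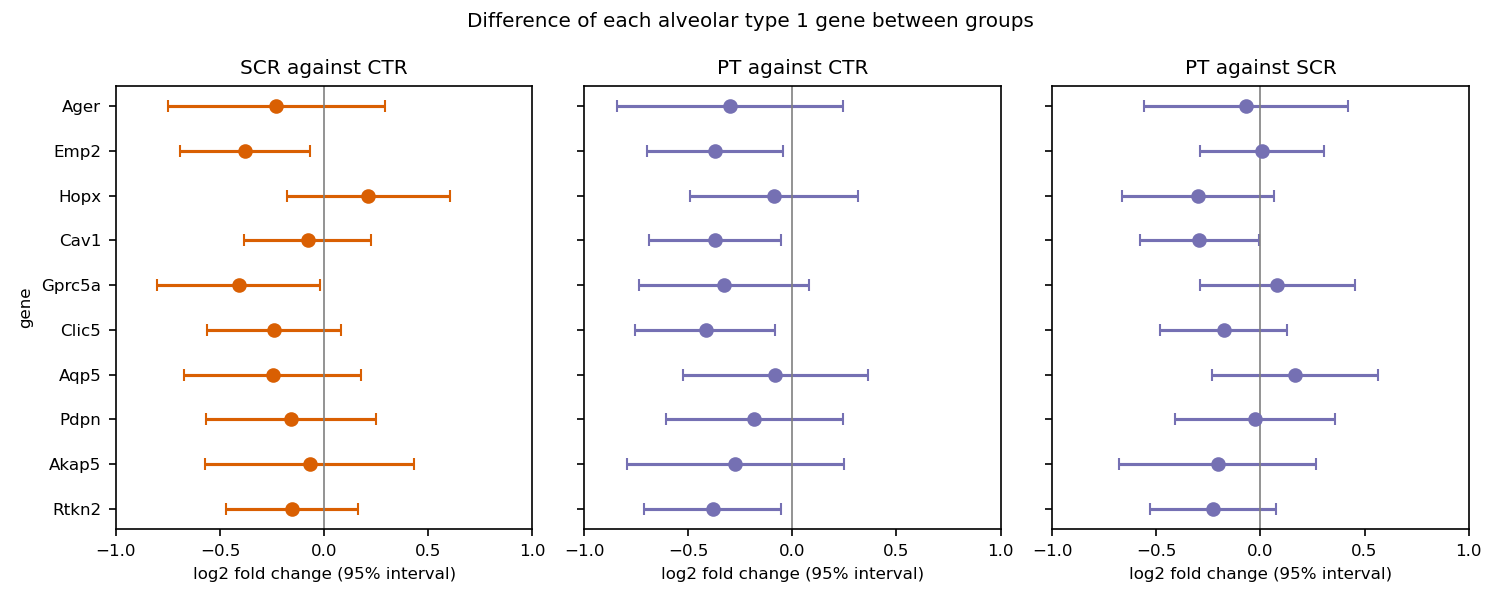
Log2 fold change of each gene with its 95% interval from edgeR's quasi-likelihood fit, for SCR against CTR, PT against CTR and PT against SCR; genes run down the page from the highest to the lowest level per kilobase. All 10 points lie below 0 in PT against CTR, from -0.42 (Clic5) to -0.08 (Aqp5), and Hopx is the 1 point above 0 in SCR against CTR.

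Per kilobase of transcript, the order of levels over all lungs was Ager (854 CPM per kb), Emp2 (525), Hopx (506), Cav1 (447), Gprc5a (242), Clic5 (237), Aqp5 (126), Pdpn (88.5), Akap5 (67.2) and Rtkn2 (49.4). In CTR lungs Ager stood at 972 ± 318 CPM per kb and Emp2 at 632 ± 136 (SD, n = 4 each), so these neighbours overlapped within their spread. Cav1 (495 ± 90.3) and Hopx (485 ± 45.9) were as close in CTR lungs, and in SCR lungs Hopx (562 CPM per kb) stood above Emp2 (486) and Cav1 (469). Together the 10 genes took 0.743% to 0.947% of all counts in SCR lungs, 0.775% to 0.867% in PT lungs and 0.873% to 1.12% in CTR lungs. As shares of unscaled counts, PT lungs lay below every CTR lung and SCR lungs overlapped CTR. After TMM scaling the summed level was 7047 to 10520 CPM in SCR, 7501 to 8696 CPM in PT and 8352 to 11810 CPM in CTR lungs, so that PT overlapped CTR as well. Averaged as log2 CPM over the 10 genes, levels were 9.28 ± 0.20 in SCR lungs, 9.19 ± 0.09 in PT lungs and 9.45 ± 0.21 in CTR lungs (SD, n = 6, 5 and 4).

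**Figure D2:**
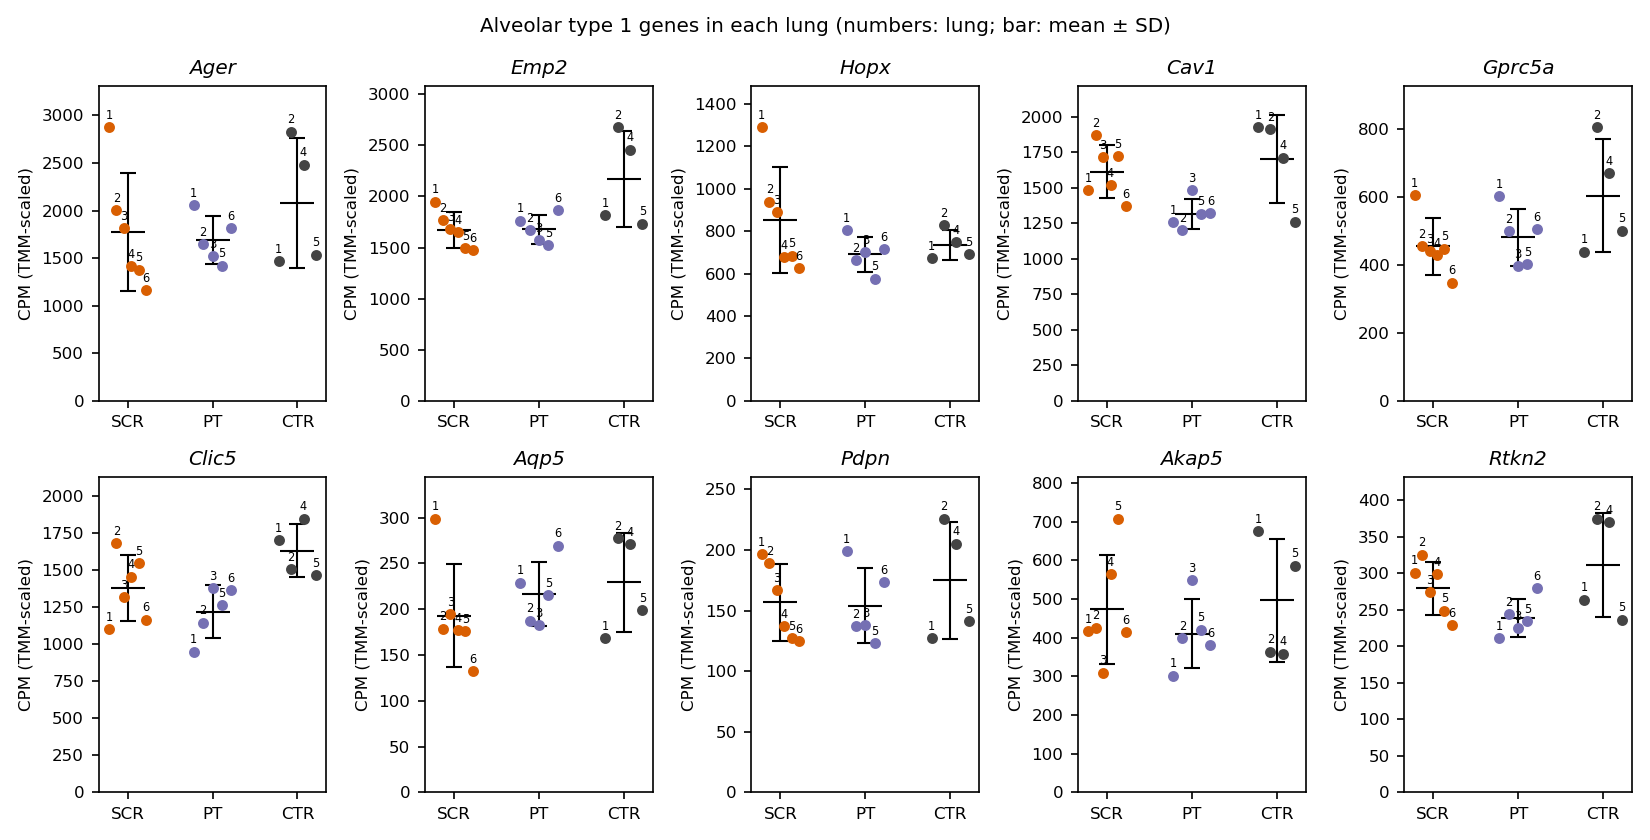
CPM (scaled by TMM) of each gene in each lung, on linear axes from 0, with SCR and PT lungs left of CTR lungs; numbers are the lung within its group, and bars are the mean and SD. Within CTR, lungs 2 and 4 are high in Ager, Emp2, Gprc5a, Aqp5, Pdpn and Rtkn2, while Clic5 is the 1 gene whose PT lungs all lie below all CTR lungs.

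Clic5, a member of the chloride intracellular channel family that associates with the actin cytoskeleton, gave the clearest separation in tumour-bearing mice. Its levels were 951, 1146, 1379, 1264 and 1367 CPM in PT lungs 1, 2, 3, 5 and 6, against 1702, 1506, 1849 and 1465 CPM in CTR lungs 1, 2, 4 and 5. Every PT lung lay below every CTR lung, as for 1.87% of all tested genes, and Clic5 was the only 1 of the 10 with such a gap. The log2 fold change was -0.42 ± 0.16 (SE), a level 0.749 of CTR, with a 95% interval of -0.75 to -0.08 and an adjusted p of 0.591 by edgeR's quasi-likelihood test. In SCR lungs Clic5 ran from 1101 to 1682 CPM around a median of 1389 and overlapped CTR, with a log2 fold change of -0.24 ± 0.15 and an adjusted p of 0.405 in the edgeR fit. Leaving out a single lung kept PT against CTR at -0.47 to -0.34. On the FPKM normalised by the authors, limma gave -0.17.

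Emp2, a small tetraspan membrane protein of epithelia, was lower at the unadjusted threshold in both models. It ran from 1474 to 1950 CPM in SCR lungs (median 1668), was at 1762, 1669, 1570, 1526 and 1867 CPM in PT lungs and at 1817, 2679, 2459 and 1733 CPM in CTR lungs. The high CTR values belonged to lungs 2 and 4, and CTR lungs 1 and 5 fell within the range of SCR lungs. The log2 fold changes were -0.38 ± 0.15 in SCR (interval -0.69 to -0.07, adjusted p = 0.190) and -0.37 ± 0.15 in PT (interval -0.70 to -0.05, adjusted p = 0.609) in edgeR's quasi-likelihood test. With DESeq2 the adjusted p of Emp2 in SCR against CTR was 0.0791, the lowest of any member in the alternatives run. PT and SCR lungs differed by 0.01 ± 0.14 in log2 for Emp2, with an interval of -0.29 to 0.30.

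Promoter sequences are shown for Clic5 and Emp2, because these carry the clearest separation and the lower values in both models. They are the 250 bases before the RefSeq start (GRCm38.p6), with the GC box GGGCGG or its reverse CCGCCC in capitals. Clic5 lies on chromosome 17 from 44188572 to 44280168 and Emp2 on chromosome 16 from 10281749 to 10313968 (GRCm38, positions as deposited). The Clic5 window is chr17:44188322-44188571 on the plus strand and the Emp2 window chr16:10313969-10314218 on the minus strand, each printed in the direction of its gene.
Clic5: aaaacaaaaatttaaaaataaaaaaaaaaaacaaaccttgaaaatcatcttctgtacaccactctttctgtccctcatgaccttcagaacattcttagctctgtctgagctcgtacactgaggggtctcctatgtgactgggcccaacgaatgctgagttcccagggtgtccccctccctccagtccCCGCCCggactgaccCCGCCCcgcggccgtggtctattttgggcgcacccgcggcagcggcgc
Emp2: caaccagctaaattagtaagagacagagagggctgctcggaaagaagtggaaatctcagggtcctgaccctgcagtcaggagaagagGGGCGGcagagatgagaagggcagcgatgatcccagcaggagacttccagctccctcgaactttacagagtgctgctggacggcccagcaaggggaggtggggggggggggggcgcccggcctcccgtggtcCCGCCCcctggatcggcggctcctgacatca

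Promoters were found for 8 of the 10 genes (10 windows, since Hopx and Cav1 have an additional start each), out of 32851 in the table. A GC box on either strand was in the windows of 5 genes, Akap5, Aqp5, Cav1, Clic5 and Emp2, and in 32.7% of all promoters. The TEAD motif GGAATG (or CATTCC) was in none of the 10 windows and in 12.6% of all promoters, and the AP-1 motif TGANTCA was in none and in 6.75%. None of these motifs contains another, and they can overlap only at their ends. A motif match says only that the letters occur in this window.

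Cav1, which forms the coat of caveolae, was lower in PT lungs at the unadjusted threshold alone. Its levels were 1258, 1202, 1486, 1319 and 1320 CPM in PT lungs, against 1928, 1914, 1712 and 1262 CPM in CTR lungs. CTR lung 5 was the exception, at the level of the PT lungs, and SCR lungs (1369 to 1873 CPM, median 1618) covered most of the CTR range. The log2 fold change was -0.37 ± 0.15 in PT against CTR (adjusted p = 0.603), -0.08 ± 0.14 in SCR against CTR (adjusted p = 0.810) and -0.29 ± 0.14 in PT against SCR (adjusted p = 0.415) in edgeR. The interval of the direct PT against SCR difference ran from -0.58 to -0.01. On the authors' FPKM, limma gave -0.05 for PT against CTR, and which of the changed steps (normalisation, test or genes fitted) accounts for this was not tested. Of the general endothelial markers, 11 of 12 were below 0 in PT lungs and 10 of 12 in SCR lungs, with medians of -0.34 and -0.35. Their summed levels were 5469 to 6603 CPM in PT, 5353 to 6228 CPM in SCR and 6373 to 8655 CPM in CTR lungs. Their part in the Cav1 values was not tested. The 9 measured partners of Cav1 in caveolae were split, 5 below 0 in each model with medians of -0.07 in SCR (-0.11 without SCR lungs 1 to 3) and -0.06 in PT. Ehd2, an ATPase at the caveolar neck, was the 1 partner past the unadjusted threshold, beside 10.2% of all genes lower in SCR and 4.73% in PT. Its log2 fold changes were -0.69 ± 0.17 in SCR (adjusted p = 0.0850) and -0.39 ± 0.17 in PT (adjusted p = 0.621) in edgeR.

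Ager, the receptor for advanced glycation end-products and the most abundant of the 10 per kilobase, varied more within groups than between them. It ran from 1162 to 2878 CPM in SCR lungs (median 1613), was at 2054, 1644, 1518, 1422 and 1816 CPM in PT lungs and at 1472, 2831, 2482 and 1536 CPM in CTR lungs. SCR lung 1 and CTR lung 2 were at about the same high level, and the coefficient of variation was 35.1% in SCR, 14.8% in PT and 32.7% in CTR lungs. The log2 fold changes were -0.23 ± 0.25 in SCR and -0.30 ± 0.26 in PT, with intervals of -0.75 to 0.29 and -0.84 to 0.24. Both intervals include 0.

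Pdpn (podoplanin), a mucin-type membrane glycoprotein that links the membrane to the actin cytoskeleton, followed a similar pattern. It ran from 124.9 to 196.5 CPM in SCR lungs (median 151.9), was at 198.9, 137.3, 138.1, 123.2 and 173.3 CPM in PT lungs and at 127.4, 225.9, 205.3 and 141.2 CPM in CTR lungs. The groups overlapped throughout, and the log2 fold change was -0.16 ± 0.19 in SCR against CTR and -0.18 ± 0.20 in PT against CTR. Mesothelial and lymphatic cells also make Pdpn. The mean log2 CPM of 11 mesothelial markers was 1.80 ± 1.19 in SCR lungs 1 to 3 and 4.52 ± 0.32 in SCR lungs 4 to 6, against 4.24 ± 0.46 in CTR lungs. Their summed level was 281.1 to 320.1 CPM in SCR lungs 1 to 3 and 551.0 to 723.4 CPM in SCR lungs 4 to 6, against 501.2 to 679.5 CPM in CTR lungs. Pdpn was at 196.5, 188.9 and 166.9 CPM in SCR lungs 1 to 3 and at 124.9 to 137.0 CPM in SCR lungs 4 to 6. Lymphatic markers had 3 of 6 below 0 in SCR (median -0.20) and 5 of 6 in PT (median -0.41). The part of mesothelial and lymphatic cells in the Pdpn values was not tested.

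Gprc5a, an orphan receptor induced by retinoic acid, had the lowest fitted value of the set in SCR lungs. It ran from 347.9 to 605.3 CPM in SCR lungs (median 444.5), was at 601.3, 499.5, 396.1, 401.4 and 506.0 CPM in PT lungs and at 438.9, 805.5, 669.7 and 500.8 CPM in CTR lungs. Only 2 of the 6 SCR lungs lay below the lowest CTR lung. The log2 fold change was -0.41 ± 0.19 in SCR (interval -0.80 to -0.02, adjusted p = 0.250) and -0.33 ± 0.19 in PT (adjusted p = 0.724) in edgeR's quasi-likelihood test. Without CTR lung 2 or without CTR lung 4, neither Gprc5a nor Emp2 was past the unadjusted threshold in SCR against CTR.

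Aqp5, the water channel of the apical AT1 membrane, ran from 132.6 to 298.9 CPM in SCR lungs (median 178.0), was at 228.9, 187.4, 182.4, 215.3 and 269.5 CPM in PT lungs and at 168.7, 277.7, 271.3 and 199.2 CPM in CTR lungs. All PT lungs fell within the CTR range. SCR lung 1 stood alone at the top of its group, and 4 of the other 5 SCR lungs were between 176.3 and 194.7 CPM. The log2 fold changes were -0.25 ± 0.20 in SCR and -0.08 ± 0.21 in PT, and the PT value changed sign in some of the alternatives run.

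Hopx, a homeodomain protein that does not bind DNA and marks AT1 cells and their progenitors, was the only member above 0 in SCR against CTR. It was at 1291, 938.9 and 890.5 CPM in SCR lungs 1 to 3, at 678.6, 684.6 and 625.7 CPM in SCR lungs 4 to 6, at 804.1, 662.1, 700.8, 575.6 and 716.7 CPM in PT lungs and at 671.8, 827.8, 747.4 and 692.6 CPM in CTR lungs. SCR lungs 1 to 3, the lungs high in glucocorticoid-response genes, were above every CTR lung, and SCR lungs 4 to 6 were below CTR lungs 2, 4 and 5. The log2 fold change was 0.21 ± 0.18 over all 6 SCR lungs (interval -0.18 to 0.60, adjusted p = 0.562 in edgeR) and -0.11 without SCR lungs 1 to 3. In PT against CTR it was -0.09 ± 0.19.

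Rtkn2 was the least abundant member per kilobase. It ran from 228.7 to 325.5 CPM in SCR lungs (median 286.1), was at 210.7, 243.6, 224.4, 233.9 and 279.8 CPM in PT lungs and at 263.9, 374.7, 369.4 and 236.2 CPM in CTR lungs. In PT, 3 of 5 lungs lay below the lowest CTR lung. The log2 fold change was -0.38 ± 0.16 in PT (interval -0.71 to -0.05, adjusted p = 0.603) and -0.16 ± 0.15 in SCR (adjusted p = 0.612) in edgeR's quasi-likelihood test, and limma on the FPKM gave -0.36 for PT.

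Akap5, a scaffold that anchors protein kinase A at the membrane, differed in pattern from Ager among CTR lungs. It ran from 309.4 to 708.3 CPM in SCR lungs (median 421.7), was at 302.2, 399.5, 549.7, 420.9 and 380.5 CPM in PT lungs and at 676.2, 363.8, 359.3 and 586.5 CPM in CTR lungs. CTR lungs 2 and 4, the highest CTR lungs for Ager, were the lowest for Akap5. Its log2 fold changes were -0.07 ± 0.24 in SCR and -0.27 ± 0.25 in PT.

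Libraries differed in how counts followed GC content, and the members differ in GC content. The 5 members of at least 50% GC are Aqp5 (62.8%), Ager (58.6%), Gprc5a (54.5%), Emp2 (50.4%) and Hopx (50%), and the other 5 are Pdpn (48.8%), Rtkn2 (45.9%), Clic5 (45.7%), Cav1 (44.7%) and Akap5 (44.3%). For each lung, the slope of log2 CPM on GC content over all tested genes was taken relative to the mean of the lungs. Per 10 percentage points of GC it was 0.21 in SCR lung 1 and -0.18 to -0.08 in the other SCR lungs, 0.26 and 0.15 in PT lungs 1 and 2 and -0.26 to -0.003 in the other PT lungs, and 0.41 and 0.31 in CTR lungs 2 and 4 and -0.21 and -0.10 in CTR lungs 1 and 5. The mean log2 CPM of the GC-rich members exceeded that of the GC-poor members by 1.00 in SCR lung 1, 0.94 in PT lung 1 and 0.80 and 0.65 in CTR lungs 2 and 4, but by 0.18 in SCR lung 5 and 0.17 in CTR lung 1. Each group had lungs high and low in this range, and CTR has both of the steepest slopes. The GC-poor members were split among CTR lungs. Rtkn2 and Pdpn were highest in lungs 2 and 4, Akap5 was lowest there, Clic5 was highest in lung 4 and Cav1 in lung 1. The part of GC content in these values was not tested.

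**Figure D3:**
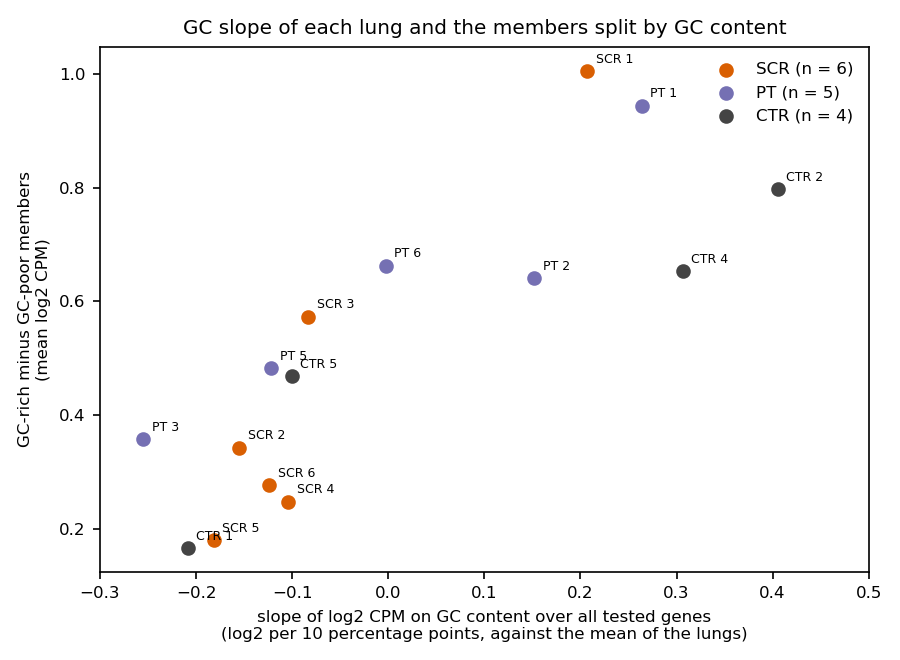
Each point is a lung: the horizontal axis is the slope of log2 CPM on GC content over all tested genes, the vertical axis the mean log2 CPM of the 5 GC-rich members minus that of the 5 GC-poor members. The 5 lungs with a slope over 0.1 have differences of 0.64 to 1.00, and SCR lung 5 and CTR lung 1 have the smallest differences, 0.18 and 0.17.

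With a GC correction in each lung, the SD of log2 CPM within a group became smaller for 8 of 10 members in SCR, 9 of 10 in PT and 7 of 10 in CTR lungs. Among CTR lungs it became larger for Rtkn2 (0.39 after and 0.34 before the correction) and Cav1 (0.34 after and 0.29 before). The median log2 fold change of the 10 members was then -0.16 in SCR against CTR and -0.29 in PT against CTR. Clic5 and Cav1 were at -0.44 and -0.41 in PT lungs after the correction, and 0 members were called in edgeR, the lowest adjusted p being 0.164 in SCR against CTR and 0.339 in PT against CTR. The part of GC content in the remaining differences was not tested.

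Genes known from AT1 cells beyond the 10 were measured as a list of 18. All 18 were below 0 in PT against CTR, with a median of -0.28, and 10 of 18 in SCR against CTR, with a median of -0.11, and none was called. Without SCR lungs 1 to 3, 16 of 18 were below 0 in SCR, with a median of -0.24. Spock2, a proteoglycan of the extracellular matrix, was at 326 ± 71.1 CPM in SCR, 345 ± 44.8 in PT and 518 ± 146 in CTR lungs (SD, n = 6, 5 and 4), with log2 fold changes of -0.67 ± 0.20 in SCR (adjusted p = 0.120) and -0.59 ± 0.20 in PT (adjusted p = 0.568) in edgeR. Itgb6, an integrin subunit that activates latent TGF-beta, was at -0.70 ± 0.25 in SCR, and Sema3e, a guidance ligand for endothelium, at -0.40 ± 0.16 in PT. Vegfa, through which AT1 cells signal to the capillaries, was at -0.23 ± 0.14 in SCR.

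The regulators of AT1 fate and YAP/TAZ targets had 15 of 16 below 0 in SCR (median -0.26) and 16 of 16 in PT (median -0.30), and 0 were called. In each, 6 were lower at the unadjusted threshold, beside 10.2% of all genes in SCR and 4.73% in PT. Without SCR lungs 1 to 3 the SCR median was -0.17. In that fit 2 of the 16 were lower at that threshold, beside 5.41% of all genes. Their summed level was 1686 to 2313 CPM in SCR, 1728 to 2074 CPM in PT and 2290 to 2681 CPM in CTR lungs. Notch3, a receptor of Notch signalling, was at -0.82 ± 0.19 in SCR (adjusted p = 0.0793) and -0.62 ± 0.20 in PT (adjusted p = 0.507) by edgeR's test, Cyr61 (Ccn1), a matricellular YAP target, at -1.41 ± 0.45 in SCR, and Fgfr2, the epithelial receptor for fibroblast growth factors, at -0.33 ± 0.12 in PT. In whole-lung RNA, the cells that gave the values of Notch3 and the others were not identified. Cyr61 is also an early-response gene. Early-response genes were lower in SCR lungs, with 10 of 10 below 0 and a median of -1.36. Of these genes, 3 were called (Fosb, Atf3 and Egr2), beside 0.113% of all tested genes. Without SCR lungs 1 to 3 the median was -0.83 with 0 called in edgeR. In that fit 7 of 10 were lower at the unadjusted threshold, beside 5.41% of all genes. The part of early-response genes in the values of YAP/TAZ targets was not tested.

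The 7 basement-membrane genes made by AT1 cells stood further from 0 than the identity genes. All 7 were below 0 and past the unadjusted threshold in both models, with medians of -0.84 in SCR and -0.70 in PT, and 0 of 7 were called. Over all tested genes, 10.2% were lower at that threshold in SCR and 4.73% in PT. The 7 genes were chosen with earlier results of these data known, so their count is not independent of the choice. The mean log2 CPM of the 7 was 6.68 ± 0.31 in SCR lungs 1 to 3 and 7.23 ± 0.23 in SCR lungs 4 to 6, against 7.85 ± 0.31 in CTR lungs (SD). Without SCR lungs 1 to 3 the SCR median was -0.60, with all 7 still past the unadjusted threshold, beside 5.41% of all genes lower. Agrn (agrin), a heparan sulphate proteoglycan, was at -0.81 ± 0.18 in SCR (adjusted p = 0.0717) and -0.62 ± 0.18 in PT (adjusted p = 0.498), and Lamb3, a chain of laminin-332, at -0.95 ± 0.21 and -0.70 ± 0.22 in the same edgeR fit. Npnt (nephronectin) and others of these genes are expressed in fibroblasts too, and fibroblast markers had medians of -0.81 in SCR and -0.44 in PT.

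Among neighbouring alveolar states, 10 of 16 alveolar type 2 markers were below 0 in SCR (median -0.19) and 8 of 16 in PT (median 0.02). Without SCR lungs 1 to 3, 14 of 16 were below 0 in SCR, with a median of -0.265. Abca3, the lipid transporter of lamellar bodies, was at -0.66 ± 0.16 in SCR (adjusted p = 0.0850) and -0.53 ± 0.17 in PT (adjusted p = 0.498) in edgeR. Chil1, a chitinase-like protein, lay the other way in PT, at 914 ± 155 CPM in PT and 455 ± 153 CPM in CTR lungs (SD, n = 5 and 4). Its log2 fold change was 1.00 ± 0.37 (adjusted p = 0.585 in edgeR). Chil1 and Abca3 were the type 2 markers past the unadjusted threshold in PT, beside 4.73% of all genes lower and 2.93% higher. The 13 markers of the transitional state were at medians of -0.05 in SCR and -0.02 in PT, and -0.22 in SCR without SCR lungs 1 to 3. In SCR, 3 were lower at the unadjusted threshold and 1 was higher, beside 10.2% of all genes lower and 8.58% higher. Hbegf, a ligand of the EGF receptor, was at -0.50 ± 0.15 and Tnfrsf12a, the TWEAK receptor, at -0.46 ± 0.16. The higher marker, Sfn (14-3-3 sigma), was at 0.66 ± 0.31, with 8.54, 12.7 and 8.59 CPM in SCR lungs 1 to 3 and 3.29 to 5.13 CPM in SCR lungs 4 to 6, against 3.58 to 5.71 CPM in CTR lungs. Markers of aerocytes, the capillary cells that face AT1 cells, were at medians of 0.09 in SCR (-0.09 without SCR lungs 1 to 3) and -0.23 in PT, and none of the 9 was called. The direct difference between the members and any of these lists was not tested.

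**Figure D4:**
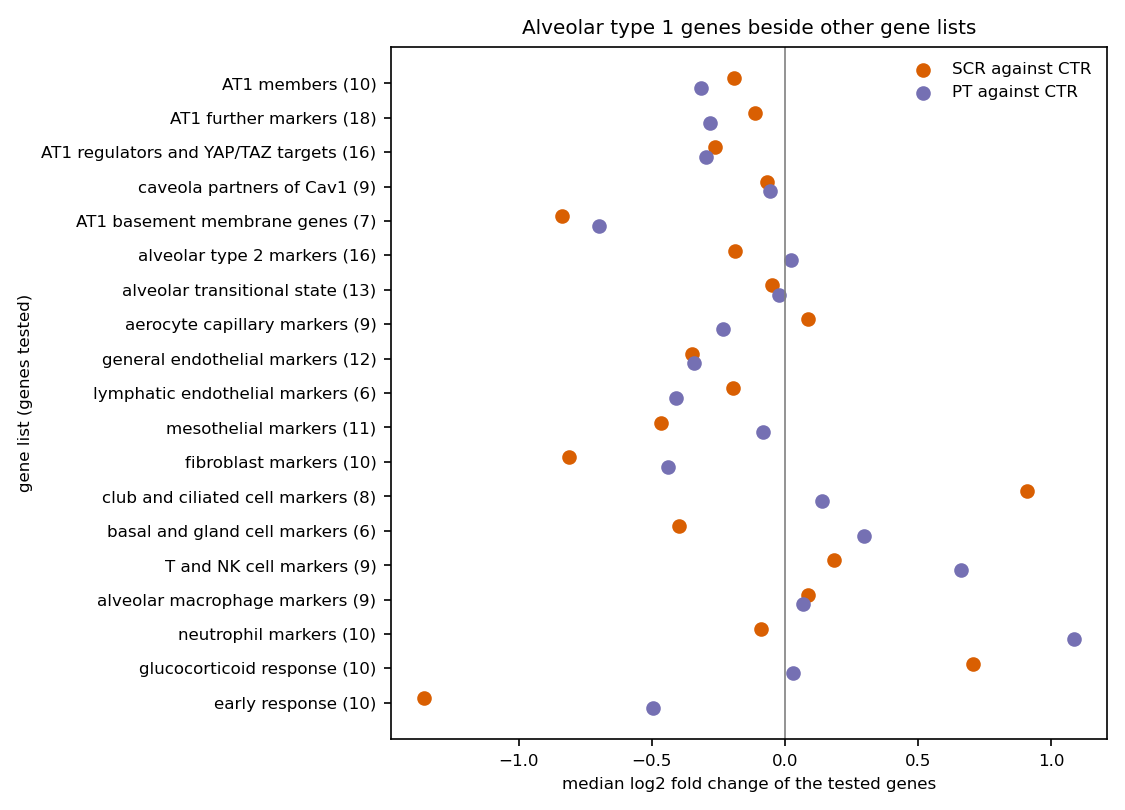
Median log2 fold change of the tested genes of each list, with the number of genes in parentheses, for SCR against CTR and PT against CTR. The AT1 members lie at -0.19 and -0.31, the basement-membrane genes at -0.84 and -0.70, and alveolar type 2 markers at -0.19 and 0.02.

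Markers of other cells moved with the groups as well. Neutrophil markers were at a median of 1.09 in PT with 10 of 10 above 0, and their summed level was 983 to 1764 CPM in PT against 264 to 1103 CPM in CTR lungs. In SCR they were at a median of -0.09 with 6 of 10 below 0, and at 0.21 with 3 of 10 below 0 without SCR lungs 1 to 3. Club and ciliated cell markers were at a median of 0.91 in SCR with 8 of 8 above 0, and their summed level was 46020 to 112200 CPM in SCR lungs 1 to 3 and 28480 to 34690 CPM in SCR lungs 4 to 6, against 22780 to 42370 CPM in CTR lungs. Without SCR lungs 1 to 3 their SCR median was 0.40, and the PT median was 0.14. No marker in either list was called, and the part of either cell group in the member values was not tested.

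Outside these lists, the tested genes whose log2 CPM most resembled the mean of the 10 members over the 15 lungs were Fkbp9, a chaperone of the endoplasmic reticulum, with Pearson's r = 0.955, Myh14, a non-muscle myosin (0.944), Habp4, an RNA-binding protein (0.939), Apbb1, an adaptor for the amyloid precursor protein (0.923), and Nfe2l1, a stress-response transcription factor (0.908). All have a GC content of 50.7% to 60.5%, and the GC slopes of the lungs are given above. The likeness is a description of these libraries, and the part of GC content in it was not tested. Myh14 was at 345 ± 71.0 CPM in SCR, 289 ± 31.4 CPM in PT and 428 ± 140 CPM in CTR lungs (SD, n = 6, 5 and 4), the CTR spread again being the widest.

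In PT against CTR, where 4 members were lower at the unadjusted threshold with all lungs, edgeR found 1 without CTR lung 2 and 1 without CTR lung 4, beside 3.19% and 1.98% of all genes lower in these fits. In SCR against CTR, where 2 were lower with all lungs, edgeR found 0 in both fits, beside 7.48% and 5.8% of all genes. Without SCR lungs 1 to 3, 4 members were lower in SCR against CTR, beside 5.41% of all genes. In male lungs alone 0 members were lower in SCR, beside 11.8% of all genes, and 2 in PT, beside 1.49%. No member's SCR lungs lay wholly below its CTR lungs (2.52% of all genes did), and no member's PT lungs lay wholly below its SCR lungs (0.775% did). The 95% intervals of the 10 members reached from -0.80 to 0.60 in SCR against CTR and from -0.84 to 0.36 in PT against CTR.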

How the data were processed

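Lung RNA of 15 mice was analysed. According to the submitters' processing notes and the paper's methods, single-end reads were processed with cutadapt 1.15, Bowtie2 2.3.3.1, STAR 2.5.2b (GRCm38), SAMtools 1.5 and featureCounts 1.5.3; the strand setting is not given in the sources used here. The deposited values are raw counts per Ensembl gene, with gene length and GC content in percent as given by the authors. The deposited FPKM (16137 genes) hold the authors' normalization within and between samples and served only in an alternative. The 10 members and 18 other lists were chosen with earlier results of these data known. Named genes are all members, genes among the first 3 of a list or among its 3 with the smallest unadjusted p in SCR or PT against CTR, and the 5 genes most like the members' mean.

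The low-count filter of edgeR kept 15870 genes for testing, out of 27075 detected by at least 1 read. edgeR 4.0.16 (R 4.3.3) fitted a robust quasi-likelihood model to all 15 lungs and 3 groups with TMM scaling (factors 0.879 to 1.08), and p-values were adjusted over all tested genes by the Benjamini-Hochberg method. SE is the fold change over the root of F, and intervals are 95%. CPM are TMM-scaled. P-values measure the spread between lungs, which the labels describe as separate samples. Chromosomes come from GENCODE M21 by Ensembl ID. Alternatives were DESeq2 1.42.0, limma 3.58.1 on log2(FPKM + 1) or log2(FPKM + 0.1), the likelihood ratio test, other scaling and filters, a replicate block, a sex term, male lungs, pairs of groups, and leaving out each lung or SCR lungs 1 to 3. A correction for GC content in each lung (lowess span 0.3), and the list values without SCR lungs 1 to 3, were added after seeing the data. On data simulated for SCR against CTR with log2 changes of at least 1 in size, 156 of 200 changed genes were recovered with 8 false calls. These changes were larger than any fitted for a member, so recovery of changes of the members' size was not examined. Python 3.11.15, pandas 2.3.3 and matplotlib 3.10.9 were used.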

Additional observations from a re-analysis of the deposited data

Results flagged for a closer look

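Aqp5 in SCR lung 1 was at 298.9 CPM, far from the other SCR lungs (132.6 to 194.7 CPM): its gap to the nearest of them was 0.626 of the whole range. By chance, about 1 in 20 gene and group combinations pass the cut-off used. With 30 combinations examined, 1 such value is within what chance gives. SCR lung 1 also had a GC slope of 0.21 log2 per 10 percentage points of GC content, and Aqp5 has the highest GC content of the members (62.8%). The part of GC content in this value was not tested.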

How the results depend on the processing

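In all 87 other counts (29 alternatives in each of 3 comparisons), 0 of 10 members were called. Of 870 fold changes of single members, 827 kept their direction and 43 changed sign. The count at an unadjusted p under 0.05 moved as follows, with the share of all tested genes lower at that threshold in parentheses. In SCR against CTR it was 2 (10.2%). It was 0 with the replicate block (7.11%), 1 with a sex term (10.7%) and 0 in male lungs only (11.8%). It was 1 with only the groups compared (7.68%), 4 without SCR lungs 1 to 3 (5.41%) and 3 with the GC correction (9.92%). On the FPKM it was 1 in all 3 limma settings (8.08% to 8.69%), and it was 0 to 3 when leaving out a lung (5.8% to 11.4%). In PT against CTR it was 4 (4.73%). It was 0 with the block (1.84%), 2 with a sex term (4.45%) and 2 in male lungs (1.49%). On the FPKM it was 0 (4.67% to 4.88%), and it was 1 to 4 when leaving out a lung (1.98% to 6.71%). In PT against SCR it was 1 (5.6%). It was 0 with library size only (3.77%), without a filter (3.98%), with the block (5.82%) and with a sex term (5.09%). It was also 0 on the FPKM (7.41% to 7.68%) and with the GC correction (6.89%), and 0 to 2 when leaving out a lung (3.51% to 7.12%). Without SCR lungs 1 to 3, 0 members were lower and 1 was higher, beside 4.09% of all genes lower and 5.28% higher. The correlations of same-numbered lungs were mixed, at -0.30 to 0.38 over 12 pairs, with 4 over 0.1. Whether the numbers mark pairs cannot be told from these values. With the block, 0 members were called.

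These log2 fold changes changed sign. In SCR against CTR, Cav1 was 0.0086 in male lungs, and Hopx was -0.11 and Akap5 0.21 without SCR lungs 1 to 3. In PT against CTR, Hopx and Aqp5 were 0.0623 and 0.05 with a sex term, 0.001 and 0.0139 in male lungs, and on the FPKM 0.0688 and 0.1441 with a pseudocount of 1 (with or without the FPKM filter) and 0.069 and 0.1447 with one of 0.1, and Aqp5 was 7e-04 with the GC correction. In PT against SCR, Ager and Pdpn were 0.0225 and 0.0534 with library size only, Pdpn was 0.0063 in male lungs, Ager, Hopx and Pdpn were 0.342, 0.0439 and 0.2318 without SCR lungs 1 to 3, Pdpn and Clic5 were 0.0337 and 0.195 on the FPKM with a pseudocount of 1 (with or without a mean FPKM of at least 1) and 0.034 and 0.1959 with one of 0.1, and Emp2 was -0.0129 with the GC correction. Leaving out a lung gave ranges that cross 0 of -0.2202 to 0.1162 for Akap5 in SCR against CTR, -0.203 to 0.0237 for Aqp5 in PT against CTR, and, between PT and SCR lungs, -0.1666 to 0.1127 for Ager, -0.1336 to 0.0457 for Pdpn, -0.0406 to 0.0474 for Emp2 and -0.0115 to 0.1714 for Gprc5a. The cause was not tested.

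The members have at least 1677 counts in each lung, so the number of lungs and the spread between them limit precision rather than depth. All CTR lungs are male and the 4 female lungs are in SCR and PT, so sex is only partly separated from the groups.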
